A study of Homo sapiens with 9 samples.

Results

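The data are RNA-seq counts of SW1783, an established human astrocytoma line, after 24 h with an extract of Poria Cocos or with its vehicle. Poria Cocos is a fungus used in herbal medicine, and the extract was prepared with 70% ethanol. The Poria group held 3 libraries, 1 each at 20, 100 and 500 µg/mL, all labelled replicate 2. The vehicle group held 3 libraries, replicates 1 to 3. These 6 libraries, of 9 in the series, were chosen by their labelled treatment and dose, and no measured value entered the choice. The other 3 libraries hold an extract of Atractylodis Rhizoma at the same doses and enter only where that extract is named. Cells of both groups grew in L-15 medium with 10% serum, and the 6 libraries carry the same batch letter. The vehicle was DMSO, given as 0.1% in the sample labels and as 2% in the series design. No DMSO percentage is given for the Poria libraries, so a difference in solvent between the groups and the effect of the extract cannot be told apart. Nothing in the labels says that the libraries came from separate cultures. The p-values then measure only the spread between these libraries, which may be technical.

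Library totals ran from 40269665 to 48905536 counts, and 18067 genes had enough counts to be tested. Levels are given in CPM, counts scaled to a library's effective size, for each library. The vehicle libraries are always in the order of replicates 1, 2 and 3, and the Poria libraries in the order 20, 100 and 500 µg/mL. Changes are on a log2 scale, with standard errors (SE) from edgeR's quasi-likelihood fits, and adjusted p is the Benjamini-Hochberg value over all genes tested with a threshold of 0.05. Each single dose has 1 library, which was assumed to vary like the vehicle libraries. The slope over the Poria doses is the log2 change per 5-fold dose step among the 3 Poria libraries alone. Its level against vehicle is a separate term, so a gene that moved by the same amount at every dose has a slope of 0. The error of that slope has 3 residual degrees of freedom, of which only 1 comes from the Poria libraries.

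Poria Cocos holds triterpenes and polysaccharides. Small lipophilic or electrophilic compounds can act on cells through sensors whose target genes are well known. The transcription factor NRF2 answers oxidants and electrophiles by switching on genes of glutathione, thioredoxin and quinone metabolism. The aryl hydrocarbon receptor answers planar xenobiotics by switching on cytochrome P450 genes. The unfolded protein response sets the level of endoplasmic reticulum chaperones, and MondoA with its partner MLX answers sugar phosphates through TXNIP and ARRDC4. In glial tumour cells, cytokine and growth factor genes such as LIF, CXCL8, PTGS2 and CCN2 respond to many stimuli.

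The line was checked against its label. Of 14 astrocyte and glial markers 8 had enough counts to be tested, with GJA1 (gap junction protein) at 255 ± 3.29 CPM, the transcription factor SOX9 at 83.3 ± 0.929 CPM and the glutamate transporter SLC1A3 at 21.3 ± 0.503 CPM in vehicle (SD, n = 3). The defining marker GFAP had 3 to 7 counts per Poria library and 0 to 4 per vehicle library. S100B, AQP4, ALDH1L1, SOX2 and FABP7 had at most 8 counts in any library. All 14 mesenchymal markers were tested, with VIM (vimentin) at 5946 ± 161 CPM in vehicle (SD, n = 3). Markers of other cell types were tested in part: 8 of 12 of neurons, 5 of 9 of oligodendrocytes, 6 of 10 myeloid, 5 of 9 epithelial and 3 of 8 endothelial. Their summed levels in vehicle were 206 to 210, 311 to 323, 175 to 183, 241 to 248 and 29.9 to 32.5 CPM. The untested markers of these types had at most 9 counts in any library, which follows from the count filter, and MAG was at 0 in all 6.

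Poria libraries stood apart from vehicle in the order of their dose. A chi-square statistic per degree of freedom, which compares the counts of a pair of libraries and is near 1 where they differ by sampling alone, was 14.89 to 15.53 for Poria at 20 µg/mL against the vehicle libraries. It was 17.49 to 22.17 at 100 µg/mL and 25.73 to 28.36 at 500 µg/mL. The statistic grows with depth as well, and the totals were 44055606, 43145369 and 48905536 counts at 20, 100 and 500 µg/mL. The part of depth was not tested. Between vehicle libraries the statistic was 2.41 to 3.33. Among the Poria libraries it was 9.4 between 100 and 20, 8.45 between 500 and 100, and 14.96 between 500 and 20 µg/mL. Each Poria library was thus closer to the neighbouring dose than any Poria library was to vehicle. The first principal component of 11543 genes held 66.7% of the variance. It placed vehicle at -10.2, -9.5 and -9.4 and the Poria libraries at 5.9, 9.9 and 13.3. The step between vehicle and 20 µg/mL was longer on this component than all later steps together. The second component, with 16% of the variance, set the top dose (8.5) apart from 20 and 100 µg/mL (-6.8 and -4.5), with the vehicle libraries between them at 1.3, -0.1 and 1.6.

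Counts of changed genes grew with dose, and the library at 500 µg/mL was also the deepest of the 6. At 20 µg/mL 3669 of 18067 genes passed against vehicle (20.3%), 1553 higher and 2116 lower. At 100 µg/mL 4709 passed (26.1%), 2062 higher (11.4%) and 2647 lower (14.7%), and at 500 µg/mL 5813 passed (32.2%), 2664 higher and 3149 lower. Most of these changes were small. Among genes called and changed at least 1.5-fold, 154 were higher and 104 lower at 20 µg/mL, 234 and 132 at 100 µg/mL, and 420 and 215 at 500 µg/mL. The median absolute log2 change of well expressed genes (mean log2 CPM of at least 2) was 0.10, 0.12 and 0.14 at the 3 doses. DESeq2 called 1147, 1713 and 2314 genes at these doses, so the growth with dose stood while the counts were far lower.

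Between neighbouring doses few genes passed. From 20 to 100 µg/mL 55 genes changed (0.304%), 29 up (0.161%) and 26 down (0.144%), and from 100 to 500 µg/mL 286 changed (1.58%), 159 up (0.88%) and 127 down (0.703%). Between 500 and 20 µg/mL 1030 passed (5.7%), 471 higher (2.61%) and 559 lower (3.09%) at 500 µg/mL, a count that was 1843 without vehicle replicate 2. With the 3 Poria libraries as 1 group against the 3 vehicle libraries, 4931 genes passed (27.3%), 2233 higher (12.4%) and 2698 lower (14.9%). In 3697 genes every Poria library lay above every vehicle library (20.5%), and in 3800 every one lay below (21%), 41.5% in all. Of the 4931 calls, 2855 held without any single library in turn, 1150 higher and 1705 lower.

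The slope over the Poria doses passed for 677 genes (3.75%), 318 rising (1.76%) and 359 falling (1.99%). This count leaned on the libraries at the ends of the dose range. It was 57 without Poria at 500 µg/mL, with 19 genes shared, and 286 without Poria at 20 µg/mL, with 163 shared. It was 401 without vehicle replicate 1 (387 shared) and 1043 without Poria at 100 µg/mL, which held all 677. Only 7 genes kept the slope call without any single library in turn, and all 7 rose: CXCL8, LIF, SLC7A11, NQO1, PTGS2, ALDH1A3 and CYP1B1. A trend over the steps vehicle, 20, 100 and 500 µg/mL passed for 4159 genes (23%), 1839 rising (10.2%) and 2320 falling (12.8%), but with dose in µg/mL in place of the step 37 passed. That trend count was 2435 without vehicle replicate 1, 2615 without replicate 2 and 2588 without replicate 3.

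**Figure D1:**
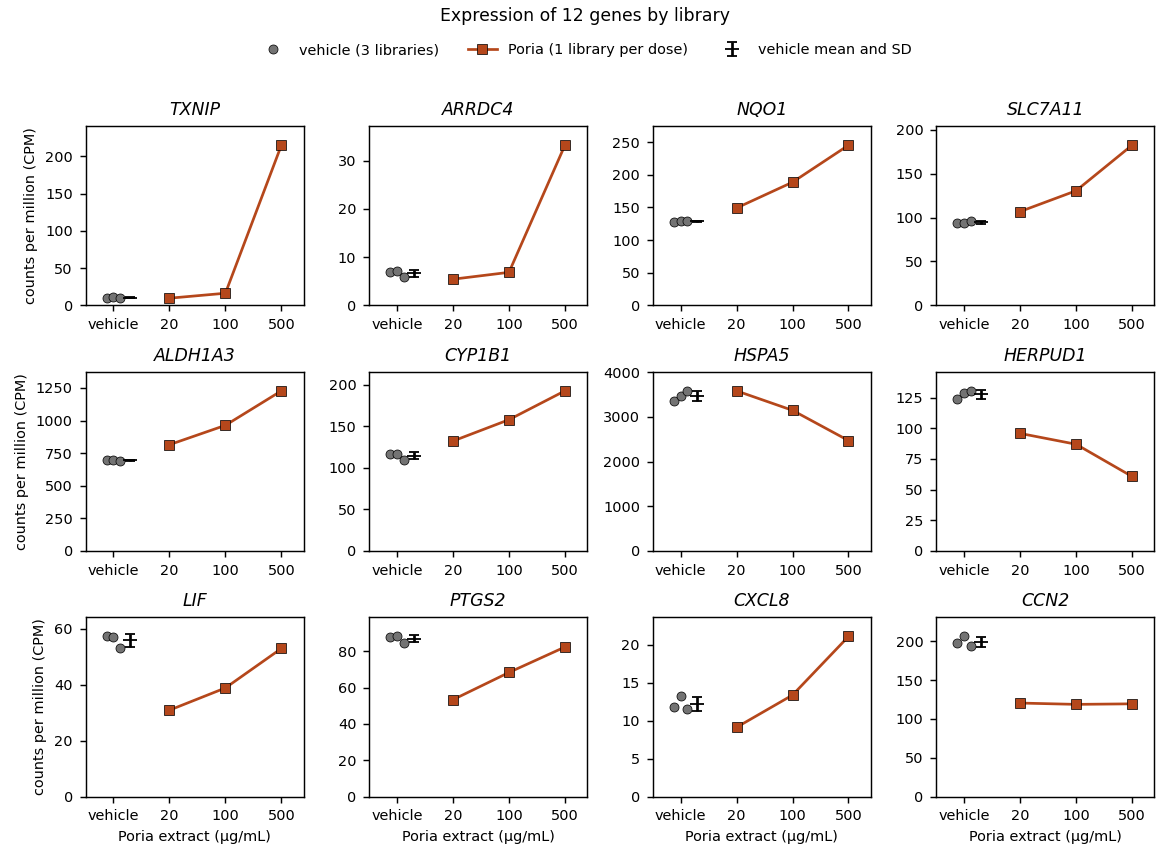
Level in CPM (linear axis from 0) of 12 genes in each library, with the 3 vehicle libraries as grey points beside their mean and SD and the Poria libraries as squares at 20, 100 and 500 µg/mL. TXNIP and ARRDC4 stand high only at 500 µg/mL, NQO1, SLC7A11, ALDH1A3 and CYP1B1 climb at each dose, LIF and PTGS2 are lowest at 20 µg/mL, and CCN2 is equally low at all 3 doses (119 to 120.5 CPM).

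Dose shapes were described for 11543 well expressed genes, of which 1947 (16.9%) differed from the vehicle mean by at least 0.32 at 1 or more doses. For scale, 197 of the same genes (1.71%) had a range of at least 0.32 among the vehicle libraries themselves. The classes were cut from these same changes and carry no test. Flat genes, which moved in 1 direction at all doses with the smallest change at least 0.67 of the largest, numbered 566, of which 247 were higher and 319 lower. Graded genes, whose change grew at each dose and was at least 1.5 times as large at 500 as at 20 µg/mL, numbered 564, of which 237 were higher and 327 lower. Top-dose genes, with the changes at 20 and 100 µg/mL under 0.4 of that at 500, numbered 161 (79 higher, 82 lower). Low-dose genes, largest at 20 µg/mL with the change at 500 under 0.67 of it, numbered 133 (68 higher, 65 lower), and middle-dose genes 103 (40 higher, 63 lower). Another 20 genes reversed, with changes of opposite sign and at least 0.2 at 20 and 500 µg/mL, and 400 took none of these shapes. Of the genes classed, 0 of 566 flat genes and 193 of 564 graded genes passed the slope test, which follows from how the classes were cut. With a minimum change of 0.58 in place of 0.32, 233 genes were left to class.

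**Figure D2:**
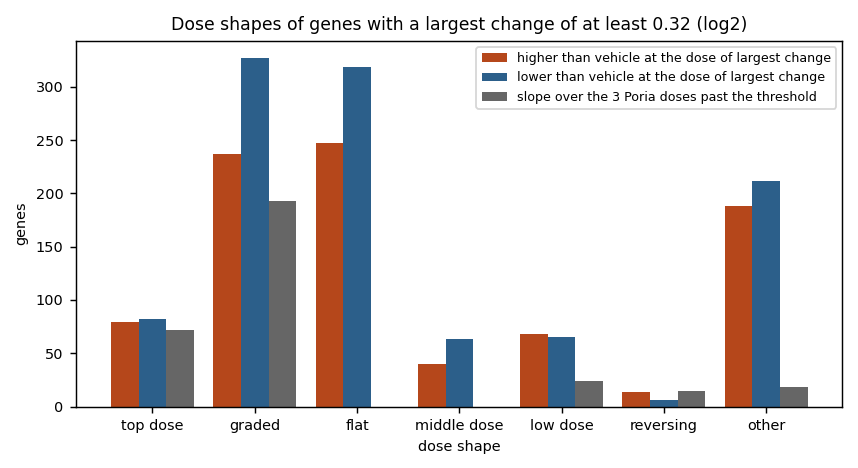
Numbers of genes in each dose shape class (vertical axis, genes; linear from 0), higher or lower than vehicle at the dose of the largest change, with those whose slope over the Poria doses passed the threshold in grey. Flat (566) and graded (564) genes are the largest classes, and the grey bar is 0 for flat genes, 193 for graded and 72 for top-dose genes.

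**Figure D3:**
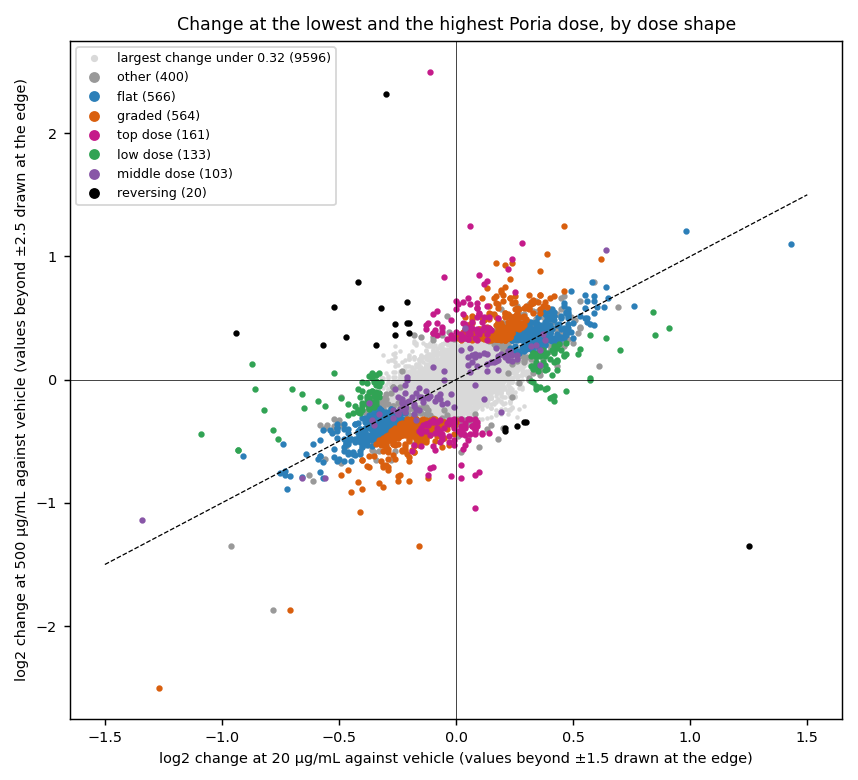
Log2 change against vehicle at 20 µg/mL (horizontal) and at 500 µg/mL (vertical) for 11543 genes, coloured by dose shape, with equality as a dashed line and both axes resting on the same 3 vehicle libraries. Flat genes (566) lie along the line, graded genes (564) on the steeper side of it, top-dose genes (161) along the vertical axis, and reversing genes (20) in the quadrants of opposite sign.

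A pair of genes of sugar sensing rose steeply between 100 and 500 µg/mL. TXNIP (ENSG00000265972, chr1:145992435-145996600 in GRCh38, minus strand) encodes a thioredoxin-binding protein that curbs glucose uptake. It had 10.4, 10.8 and 9.45 CPM in the vehicle libraries and 9.51, 16.2 and 215 CPM at 20, 100 and 500 µg/mL. The value at 20 µg/mL lay within the vehicle range, that at 100 above it, and the top dose 21.0-fold over the vehicle mean. The change at 500 µg/mL was 4.39 ± 0.05 (adjusted p = 1.1e-28), against 0.66 ± 0.07 at 100 µg/mL (3.9e-07) and -0.11 ± 0.08 at 20 µg/mL (0.44). ARRDC4, an arrestin-domain relative under the same sensor, had 6.83, 7.21 and 5.90 CPM in vehicle and 5.41, 6.83 and 33.2 CPM at the 3 doses. Its change was 2.32 ± 0.08 at 500 µg/mL (adjusted p = 4.9e-17) and 0.04 ± 0.11 at 100 µg/mL (0.84). The top dose lay clear of every other library in both genes. A straight slope over the doses did not pass for TXNIP or ARRDC4 (adjusted p = 0.10 and 0.14).

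Of the 15 tested members of the glucose-sensing list 1 rose and 3 fell with the Poria libraries as 1 group, where 12.4% and 14.9% of all genes did, and none passed for the slope. ARRDC3 rose (0.39 ± 0.05, adjusted p = 3e-04), while G6PC3, SLC2A1 and MLXIP, the gene of MondoA itself, fell (-0.31, -0.32 and -0.19, adjusted p = 5.8e-05, 1.6e-05 and 0.005). SLC2A1, the glucose transporter gene GLUT1, had 174, 165 and 162 CPM in the Poria libraries against 210.2, 208 and 209 CPM in vehicle. The 250 bases before the TXNIP start are shown because they hold the only carbohydrate response element pattern among 13 members of this list with a promoter in the RefSeq table. The pattern, CACGNG and CNCGNG with 5 bases between them on either strand, is in capitals, 88 bases before the start, and was present in 176 of 35116 promoter windows (0.501%). The window lies at chr1:145996580-145996829 (GRCh38.p14, minus strand).
TXNIP: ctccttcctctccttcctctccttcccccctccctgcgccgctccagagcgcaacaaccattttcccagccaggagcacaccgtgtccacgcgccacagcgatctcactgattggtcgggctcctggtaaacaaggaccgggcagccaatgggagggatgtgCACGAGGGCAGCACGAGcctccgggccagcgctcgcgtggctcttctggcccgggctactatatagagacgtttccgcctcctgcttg

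Further top-dose genes rose or fell without the size of TXNIP. NPTX1, a neuronal pentraxin gene, had 5.11, 4.48 and 4.85 CPM in vehicle and 5.00, 5.24 and 11.5 CPM at the 3 doses, with a change of 1.25 ± 0.10 at 500 µg/mL (adjusted p = 7e-10). THBD (thrombomodulin, an anticoagulant receptor) had 8.64, 8.35 and 8.23 CPM in vehicle and 8.14, 9.98 and 15.0 CPM, a change of 0.83 ± 0.08 (1.6e-08). MYZAP, a junction protein gene, had 6.92, 6.91 and 7.50 CPM in vehicle and 8.63, 8.86 and 15.3 CPM at the 3 doses (change at the top dose 1.11 ± 0.08, 3.1e-10). In each of these the top dose lay clear of all other libraries. FAM13B fell to 34.6 CPM at 500 µg/mL, with 75.0 and 59.9 CPM at 20 and 100 µg/mL and 72.1, 73.0 and 67.4 CPM in vehicle (-1.04 ± 0.05, 3.2e-13). SELENOW, a small selenoprotein gene, fell by 0.78 at the top dose (2.8e-11) and LINC00973, a long non-coding RNA, by 0.77 (1e-10). NEFL, the neurofilament light chain gene, had 4.21 CPM at 500 µg/mL, below 7.06 to 7.74 CPM in vehicle (-0.80 ± 0.11, 6.3e-06). The slopes of NPTX1, THBD, MYZAP, FAM13B, LINC00973 and NEFL passed with all libraries (0.64, 0.45, 0.43, -0.55, -0.42 and -0.40). Without Poria at 500 µg/mL those of NPTX1, THBD, MYZAP, LINC00973 and NEFL did not (0.07, 0.29, 0.04, -0.18 and -0.18, adjusted p = 0.97, 0.53, 0.98, 0.42 and 0.84). The slopes of FAM13B, NPTX1 and LINC00973 also ended without vehicle libraries: FAM13B without replicate 1 or 2 (adjusted p = 0.054 and 0.08), NPTX1 without any of the 3 (0.088, 0.081 and 0.12) and LINC00973 without replicate 2 or 3 (0.073 and 0.12).

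NRF2 target genes rose with dose among the Poria libraries. NQO1 (ENSG00000181019, chr16:69706996-69726951, minus strand), a quinone reductase, had 128, 129 and 129 CPM in the vehicle libraries and 149, 189 and 245 CPM at 20, 100 and 500 µg/mL. Every Poria library lay above vehicle and above the dose below it, by 0.34 between 100 and 20 µg/mL (adjusted p = 0.00013) and by 0.38 between 500 and 100 µg/mL (6e-06). The slope was 0.36 ± 0.02 (1.8e-08), and 0.34 to 0.38 when any single library was left out. SLC7A11 (ENSG00000151012, chr4:138164097-138242349, minus strand), the cystine importer that feeds glutathione synthesis, had 93.9, 93.7 and 96.4 CPM in vehicle and 107, 130.5 and 182 CPM at the 3 doses. Its slope was 0.39 ± 0.03 (4.3e-08), and 0.29 to 0.49 when any single library was left out. In both genes the 3 Poria values did not overlap vehicle, as in 20.5% of all genes with Poria above. The comparison of all Poria libraries with vehicle still did not pass (adjusted p = 0.12 and 0.16). The spread between doses counts as error in that comparison.

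Of 26 NRF2 list members 14 rose and 0 fell over the Poria doses, against 1.76% and 1.99% of all genes tested. Against vehicle, 7 rose and 5 fell at 20 µg/mL, where 8.6% and 11.7% of all genes did, and 23 rose and 0 fell at 500 µg/mL, where 14.7% and 17.4% did. The list's median change was 0.06, 0.10 and 0.27 at the 3 doses, with 0.00, 0.01 and 0.00 for all genes. All lists in this report were chosen with earlier results of these data known. A list's share beside that of all genes is therefore a description and no independent result. TXNRD1, a thioredoxin reductase, had 289, 299 and 292 CPM in vehicle and 294, 337 and 457 CPM at the 3 doses (slope 0.32 ± 0.03, adjusted p = 3.2e-06). GCLM, the regulatory subunit of glutathione synthesis, had 83.2, 82.6 and 89.2 CPM in vehicle and 88.5, 92.1 and 115 CPM (0.19 ± 0.03, 0.0086). SRXN1, which repairs oxidised peroxiredoxins, had 97.7, 92.9 and 93.8 CPM in vehicle and 93.6, 96.2 and 114 CPM (0.14 ± 0.03, 0.0068). In these 3 genes the 20 µg/mL library lay within the vehicle range and the top dose stood above it. Genes of the pentose phosphate pathway passed as well: TKT rose by 0.18 ± 0.02 per step (0.00053), PGD by 0.11 (0.017) and TALDO1 by 0.10 (0.024). AKR1B10, AKR1C1, AKR1C2 and AKR1C3, aldo-keto reductases, rose by 0.39, 0.38, 0.25 and 0.35 per step, but the AKR1C genes are near-identical copies, and how their reads were split is uncertain. Without Poria at 20 µg/mL the slopes of AKR1B10, AKR1C2 and AKR1C3 did not pass (adjusted p = 0.11, 0.16 and 0.51), and without Poria at 500 µg/mL those of AKR1B10, AKR1C1 and AKR1C2 did not (0.65, 0.88 and 0.77). That of AKR1C1 also ended without any 1 vehicle library (0.08, 0.087 and 0.094) and with all 9 libraries in the fit (0.24). Without Poria at 500 µg/mL 3 of the 26 passed for the slope, and without any 1 of the other libraries 11 to 18 did. Without the top dose the slope of TXNRD1 was 0.20 (adjusted p = 0.055), that of GCLM 0.06 (0.9), of SRXN1 0.04 (0.93) and of TKT 0.09 (0.72).

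Genes of the aryl hydrocarbon receptor rose with dose as well. ALDH1A3 (ENSG00000184254, chr15:100877714-100916626, plus strand), a retinaldehyde dehydrogenase, had 699, 696 and 692 CPM in vehicle and 815, 964 and 1228 CPM at the 3 doses. CYP1B1 (ENSG00000138061, chr2:38066973-38109902, minus strand), a cytochrome P450, had 117, 117 and 109 CPM in vehicle and 132, 158 and 193 CPM. Both rose at every step, with slopes of 0.30 ± 0.02 (adjusted p = 3.9e-07) and 0.27 ± 0.03 (3.2e-06) that held without any single library (0.24 to 0.35 and 0.26 to 0.29). TIPARP, a repressor of the receptor, had 59.5, 57.9 and 54.8 CPM in vehicle and 49.5, 58.9 and 79.1 CPM at the 3 doses. It was below vehicle at 20 µg/mL (-0.21, adjusted p = 0.0034, but 0.079 with DESeq2) and above it at 500 µg/mL (0.46 ± 0.05, 3.5e-08), with a slope of 0.34 ± 0.03 (3.2e-06). AHRR, another repressor, was at 40.1, 47.2 and 55.8 CPM, against 40.6, 40.7 and 44.2 CPM in vehicle (slope 0.24 ± 0.03, 0.00045). CYP1A1, the classic target, was near the limit of detection, with 0.753, 1.04 and 0.950 CPM in vehicle and 0.834, 1.42 and 2.08 CPM at the 3 doses (0.64 ± 0.14, 0.013).

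Of the 10 tested members of 12 listed for this receptor, 7 rose and 0 fell over the Poria doses, against 1.76% and 1.99% of all genes, and the median change was -0.09, 0.13 and 0.59 at 20, 100 and 500 µg/mL. The slope calls fell to 2 without Poria at 500 µg/mL and to 4 without Poria at 20 µg/mL. TIPARP and AHRR were at 0.25 (adjusted p = 0.09) and 0.24 (0.2) without the top dose, and CYP1A1 at 0.76 (0.64). As 1 group against vehicle, the 3 Poria libraries were higher for ALDH3A1, an aldehyde dehydrogenase gene at 0.316, 0.562 and 1.13 CPM against 0.226 ± 0.0861 CPM in vehicle (SD, n = 3). They were lower for SLC7A5, an amino acid transporter gene, at 165, 152 and 162 CPM, against 212, 207 and 213 CPM (-0.40, adjusted p = 5.1e-06). The ALDH3A1 call ended without vehicle replicate 1, 2 or 3 (adjusted p = 0.084, 0.13 and 0.093), Poria at 100 µg/mL (0.06) or Poria at 500 µg/mL (0.11).

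Chaperones of the endoplasmic reticulum fell with dose. HSPA5 (ENSG00000044574, chr9:125234853-125241330, minus strand), the master chaperone BiP, had 3346, 3474 and 3570 CPM in vehicle and 3584, 3148 and 2471 CPM at 20, 100 and 500 µg/mL. The lowest dose lay just above the vehicle range and the top dose well under it (slope -0.27 ± 0.03, adjusted p = 1.7e-05). CALR (ENSG00000179218, chr19:12938578-12944489, plus strand), calreticulin, was lower at every dose, with 1620, 1491 and 1318 CPM against 1886, 1899 and 1894 CPM in vehicle (slope -0.15 ± 0.02, 0.0014). HERPUD1 (ENSG00000051108, chr16:56932048-56944863, plus strand), which helps to degrade misfolded proteins, had 95.8, 87.0 and 60.7 CPM against 124, 128 and 130.5 CPM in vehicle. It was 0.476 of the vehicle mean at the top dose (-1.07 ± 0.04, adjusted p = 1.8e-15), with a slope of -0.33 ± 0.05 (0.017).

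Over the list, 14 of 20 members fell and 0 rose along the Poria doses, against 1.99% and 1.76% of all genes. The median change was -0.09, -0.14 and -0.34 at the 3 doses, with 9 members lower at 20 µg/mL (11.7% of all genes) and 19 at 500 µg/mL (17.4%). PDIA4, a disulfide isomerase, fell by 0.18 ± 0.02 per step (adjusted p = 0.00051), MANF, a secreted stress protein, by 0.18 ± 0.03 (0.00073), HSP90B1, the chaperone GRP94, by 0.15 ± 0.02 (0.0023) and HYOU1, a large chaperone, by 0.11 ± 0.02 (0.0067). HSP90B1, PDIA3 and PDIA6 resembled HSPA5, with 1545, 789 and 566 CPM at 20 µg/mL, above 1482 ± 26.5, 746 ± 17.5 and 552 ± 8.54 CPM in vehicle (SD, n = 3), and 1260, 661 and 493 CPM at 500 µg/mL. None of these 3 passed at 20 µg/mL (adjusted p = 0.32, 0.15 and 0.58). EDEM1, which also serves degradation, had a slope of -0.03 (adjusted p = 0.55). No member passed for the slope without Poria at 500 µg/mL and 6 did without Poria at 20 µg/mL. The HSPA5 slope was then -0.19 (adjusted p = 0.2), that of CALR -0.12 (0.54) and that of HERPUD1 -0.14 (0.49), without the top dose. CALR also did not pass without Poria at 20 µg/mL (-0.18, 0.051), nor HERPUD1 without vehicle replicate 2 (-0.33, 0.071).

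Promoters of 3 of these genes are shown because members of the list share elements there. The members were chosen as known genes of the unfolded protein response, so a high share is no independent result. The endoplasmic reticulum stress element, CCAAT and CCACG with 9 bases between them on either strand, was in the promoter window of 7 of 19 list members with a window (36.8%), against 27 of 35116 windows (0.0769%). These were HSPA5, HSP90B1, CALR, CANX, PDIA6, CRELD2 and XBP1. A second form, ATTGG and CCACG with 1 base between them, was in HYOU1, SDF2L1 and HERPUD1 (15.8%), against 19 windows (0.0541%). Capitals mark the match, which lies 66 bases before the start in HSPA5, 225 bases before it and on the reverse strand in CALR, and 117 bases before it in HERPUD1. The windows are chr9:125241344-125241593 (minus strand), chr19:12938359-12938608 (plus strand) and chr16:56931892-56932141 (plus strand) in GRCh38.p14.
HSPA5: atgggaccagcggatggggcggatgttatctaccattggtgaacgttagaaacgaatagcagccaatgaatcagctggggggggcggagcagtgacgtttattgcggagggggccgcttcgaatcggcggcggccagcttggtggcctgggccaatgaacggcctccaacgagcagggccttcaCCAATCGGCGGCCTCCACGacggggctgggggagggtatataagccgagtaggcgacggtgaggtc
CALR: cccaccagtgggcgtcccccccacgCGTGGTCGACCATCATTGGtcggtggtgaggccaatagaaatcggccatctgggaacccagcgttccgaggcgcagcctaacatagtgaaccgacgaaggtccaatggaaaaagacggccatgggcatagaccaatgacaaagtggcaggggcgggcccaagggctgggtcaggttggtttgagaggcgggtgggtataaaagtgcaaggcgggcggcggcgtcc
HERPUD1: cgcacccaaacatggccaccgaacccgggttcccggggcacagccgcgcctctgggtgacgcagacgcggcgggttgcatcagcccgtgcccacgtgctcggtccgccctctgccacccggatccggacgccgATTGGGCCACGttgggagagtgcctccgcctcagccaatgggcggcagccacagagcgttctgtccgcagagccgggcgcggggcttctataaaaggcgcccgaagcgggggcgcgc
By comparison, the antioxidant response element core TGACNNNGC was in 6 of 19 NRF2 list members (31.6%; 13.3% of all windows), and the xenobiotic response element TNGCGTG in 2 of 10 aryl hydrocarbon receptor members (20%; 5.51%). Over all the lists these shares ran from 0% to 66.7% and from 0% to 28.6%, so neither list stood out. For every element a member counted if any of its windows matched, while the share of all windows was taken per window. A match is a description of these letters, not a site in use.

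DDIT3, MT1E and MT1X fell over the Poria doses. DDIT3, the stress transcription factor CHOP, had 32.4, 35.6 and 33.5 CPM in vehicle and 26.9, 22.1 and 18.9 CPM at the 3 doses (slope -0.25 ± 0.04, adjusted p = 0.0011). Its groups did not overlap, as in 21% of all genes with Poria below. The DDIT3 call with the Poria libraries as 1 group ended without vehicle replicate 1, 2 or 3 (adjusted p = 0.057, 0.065 and 0.076) or Poria at 100 µg/mL (0.08). Among 22 tested genes of the integrated stress response 3 fell and 1 rose over the doses, where 1.99% and 1.76% of all genes did, and none passed without Poria at 500 µg/mL. With the Poria libraries as 1 group 8 of them fell and 1 rose, where 14.9% and 12.4% of all genes did. Of 12 metallothionein and zinc genes 7 were tested, of which 2 fell over the doses (1.99% of all genes) and 1 as a group (14.9%). Of the 7, 0 passed for the slope without Poria at 20 or 500 µg/mL. MT1E and MT1X, zinc-binding metallothioneins, had 21.7, 15.9 and 9.47 CPM and 17.5, 13.9 and 10.9 CPM at the 3 doses. In vehicle MT1E had 26.7, 24.2 and 21.7 CPM and MT1X 20.4, 18.0 and 18.7 CPM, so the 20 µg/mL value was at or just under the lower edge of vehicle and the top dose well below it. The slopes were -0.59 ± 0.07 (adjusted p = 0.0036) and -0.34 ± 0.05 (0.00065). MT2A had 383, 325 and 311 CPM against 518, 443 and 443 CPM, and its slope did not pass (-0.15 ± 0.07, 0.43). The MT2A call as a group ended without vehicle replicate 3 (adjusted p = 0.053) or Poria at 100 or 500 µg/mL (0.09 and 0.12). It also ended with no low-count filter (0.094), with offsets for GC content and transcript length (0.068) and with all 9 libraries in the fit (0.088). Metallothionein genes are close copies, so how reads were split among them is uncertain. The slopes of MT1E and MT1X did not pass without Poria at 20 µg/mL (adjusted p = 0.062 and 0.083) or at 500 µg/mL (0.48 and 0.22), nor did that of DDIT3 (0.19 and 0.15).

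The flat genes, 566 of 11543, fell or rose by similar amounts at every dose. CCN2 (ENSG00000118523, chr6:131948176-131951373, minus strand), a matricellular growth factor and classic YAP target, had 120.5, 119 and 119.5 CPM in the Poria libraries against 198, 206 and 194 CPM in vehicle. The groups lay far apart and the Poria libraries differed by less than the vehicle libraries did. The change was -0.74 ± 0.03 (adjusted p = 1.4e-08), and the slope was -0.01 ± 0.03 (0.94). CCL2, a monocyte chemokine, had 22.8, 21.6 and 22.1 CPM against 38.9, 37.4 and 36.7 CPM (-0.76 ± 0.04, 3.2e-07; slope -0.02 ± 0.04). ANGPTL4, an inhibitor of lipoprotein lipase, had 14.0, 13.7 and 12.5 CPM against 23.0, 23.0 and 23.3 CPM (-0.79 ± 0.05, 7.5e-07), although with all 9 libraries in the fit it did not pass (0.10). In all 3 genes the smallest change among the doses was at least 0.67 of the largest.

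Genes of the TGF-beta and YAP list were mostly lower with Poria. Of its 17 members 11 fell and 1 rose with the Poria libraries as 1 group, against 14.9% and 12.4% of all genes, with 11 or 12 lower without any single library. Over the doses 1 fell and 1 rose (1.99% and 1.76% of all genes). The list's median change was -0.21, -0.23 and -0.34. ACTA2, smooth muscle actin, had 105, 101 and 95.9 CPM against 143, 134 and 136 CPM in vehicle (-0.45 ± 0.04, adjusted p = 3.6e-06). TAGLN, another contractile gene, was graded, with 268, 252 and 226 CPM against 364, 349 and 348 CPM (slope -0.12 ± 0.02, 0.0059), and its slope did not pass without Poria at 20 or 500 µg/mL (0.11 and 0.72). CCN1, close to CCN2 in structure, stood higher at 500 µg/mL, with 516 CPM against 367, 360.3 and 367 CPM in vehicle (0.50 ± 0.04, 1e-10). The cyclin gene CCND1 had 166, 154 and 153.5 CPM against 205.5, 209.9 and 208 CPM (-0.40 ± 0.04, 5.3e-06). Of 26 matrix genes 12 fell and 3 rose, with medians of -0.06, -0.11 and -0.19 at the 3 doses. Over the doses 4 of them fell (1.99% of all genes), with 0 falling without Poria at 20 or 500 µg/mL and 1 without vehicle replicate 1. As a group, of 26 ribosomal protein genes 16 fell and 1 rose, and of 24 glycolysis and hypoxia genes 11 fell and 0 rose. None of the ribosomal protein genes passed for the slope, and 11 to 16 of them were lower without any single library.

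Among genes that rose at every dose, MARK2, a polarity kinase gene, had 34.1, 39.4 and 39.9 CPM against 19.3, 14.9 and 17.5 CPM in vehicle (1.13 ± 0.10, adjusted p = 0.00015). SMIM11, a small membrane protein gene with a near-identical copy, had 15.5, 11.6 and 12.3 CPM against 5.58, 6.30 and 5.38 CPM (1.19 ± 0.11, 3e-05), with uncertain read assignment. NBEAL1, a BEACH domain gene, had 16.2, 17.3 and 17.5 CPM against 10.5, 9.42 and 11.3 CPM (0.71 ± 0.07, 1.1e-05). The groups did not overlap in any of the 3, as in 20.5% of all genes with Poria above. Non-overlap was part of the rule that named the largest changes. The long nuclear RNA MALAT1 had 1168, 1117 and 1162 CPM against 892, 899 and 924 CPM (0.34 ± 0.04, 1.5e-05), and MEG3, an imprinted RNA, had 744, 803 and 855 CPM against 567, 549.6 and 582 CPM (0.50 ± 0.05, 9.4e-06). Of 8 members of the list of long nuclear RNAs 6 rose and 0 fell, where 12.4% and 14.9% of all genes did. With offsets for GC content and transcript length 4 rose, and 4 to 6 did without any single library. Their summed level was 2980 to 2990 CPM in the Poria libraries against 2240 to 2300 CPM in vehicle. MALAT1 is retained in the nucleus, which does not hold for every member, such as NORAD. The part of this shift in the other results was not tested.

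The change against vehicle followed gene GC content at all 3 doses. Across the 11516 well expressed genes with a GC value, the change against vehicle had a Spearman correlation with GC content of -0.46, -0.49 and -0.42 at the 3 doses. For the slope over the Poria doses it was -0.12. These are descriptions across genes, which share libraries and are not independent. Genes were split by GC content into 10 groups of 1138 to 1174 genes. In the group of lowest GC content (median 36.9%), the median change was 0.08, 0.09 and 0.09 at 20, 100 and 500 µg/mL. In the group of highest GC content (63.5%) it was -0.13, -0.16 and -0.16. Genes higher in the Poria libraries had a median GC content of 42.2% and those lower 56.1%, with 48.2% for all genes tested. Flat genes had medians of 42.9% (higher) and 58.6% (lower), and graded genes 41.9% and 57.3%. Middle-dose genes had 42.65% and 57%, low-dose genes 44.3% and 54.8%, and genes of no shape 42.6% and 56.35%. Top-dose genes had 49.6% and 48.35%, and reversing genes 45.8% and 43%. The part of GC content in the result was not tested. With offsets for GC content and transcript length, 3786 genes passed between Poria and vehicle (1657 higher, 2129 lower), of which 2938 were shared with the 4931. CCN2, CCL2, ANGPTL4, MARK2 and MALAT1 passed with these offsets (adjusted p = 1.7e-08, 2.6e-07, 3.6e-06, 0.00024 and 0.00022). The lower ribosomal protein genes went to 10 and the glycolysis and hypoxia genes to 6. The slope passed for 791 genes with the offsets, 628 of them shared.

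**Figure D4:**
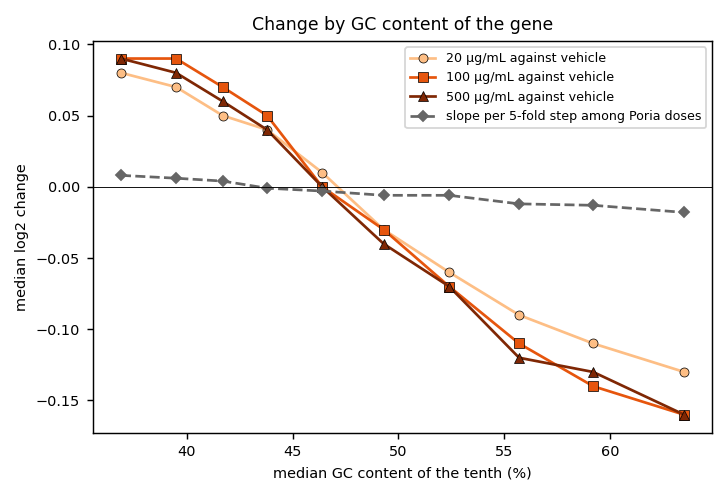
Median log2 change against vehicle at each Poria dose, and the median slope per 5-fold step among the Poria doses (dashed), for 10 groups of well expressed genes ordered by GC content (horizontal axis, percent). The 3 dose curves fall together, at 500 µg/mL between 0.09 in the group of lowest GC content and -0.16 in the highest, while the slope stays between 0.008 and -0.018.

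LIF, PTGS2 and CXCL8 were lowest at the lowest dose. LIF (ENSG00000128342, chr22:30240447-30246851, minus strand), a cytokine of the interleukin 6 family, had 57.3, 57.3 and 53.2 CPM in vehicle and 30.9, 38.9 and 53 CPM at 20, 100 and 500 µg/mL. The change was -0.86 ± 0.06 at 20 µg/mL (adjusted p = 9.4e-11), -0.52 ± 0.05 at 100 (9.4e-08) and -0.08 ± 0.05 at 500 µg/mL (0.26), where the value was just below the vehicle range. PTGS2 (ENSG00000073756, chr1:186671791-186680427, minus strand), the cyclooxygenase COX-2, had 88.1, 88.2 and 84.7 CPM in vehicle and 53.4, 68.4 and 82.4 CPM, with -0.70 ± 0.05 at 20 µg/mL (9.4e-11) and -0.08 ± 0.04 at 500 µg/mL (0.17). CXCL8 (ENSG00000169429, chr4:73740506-73743716, plus strand), the neutrophil chemokine interleukin 8, had 11.7, 13.3 and 11.5 CPM in vehicle and 9.11, 13.4 and 21.1 CPM. It was below vehicle at 20 µg/mL (-0.42 ± 0.09, 0.0019) and above it at 500 µg/mL (0.79 ± 0.07, 1.3e-08). The slopes were 0.39 ± 0.03 for LIF (1.2e-06), 0.31 ± 0.03 for PTGS2 (1.7e-06) and 0.61 ± 0.05 for CXCL8 (1.2e-06). Without any single library they were 0.33 to 0.45, 0.27 to 0.36 and 0.55 to 0.66, with adjusted p of at most 0.018. None of the 3 passed for all Poria libraries against vehicle (0.23, 0.23 and 0.66).

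Of 21 NF-kB and cytokine genes 9 were lower and 0 higher than vehicle at 20 µg/mL (11.7% and 8.6% of all genes), whereas 4 were lower and 5 higher at 500 µg/mL (17.4% and 14.7%). The list's median change was -0.27, -0.04 and -0.01. Over the doses 5 rose and 1 fell (1.76% and 1.99% of all genes), and with DESeq2 2 rose and 1 fell. IL1B, a master cytokine at 5.34, 6.32 and 8.32 CPM against 5.66 ± 0.655 CPM in vehicle (SD, n = 3), rose by 0.32 ± 0.07 per step (adjusted p = 0.015). IL11 fell instead, with 82.8, 76.4 and 62.6 CPM against 103 ± 1.98 CPM (slope -0.20 ± 0.03, 0.00054). Leaving out the lowest dose gave 3 rising and 1 falling, and leaving out the top dose gave 3 and 0. The slope of IL1B was then 0.40 (0.16) and 0.24 (0.79), and that of IL11 did not pass without the top dose (-0.12, 0.65). CCL2, ICAM1 and RELB, in contrast, were lower at all doses by like amounts, with RELB at 16.7, 14.6 and 16.2 CPM against 23.1 ± 0.762 CPM. Among 20 immediate early genes 9 fell and 1, EGR1, rose with the Poria libraries as 1 group (14.9% and 12.4% of all genes). MAFF had 15.6, 17.2 and 18.1 CPM against 26.0, 27.1 and 25.2 CPM (-0.62 ± 0.06, 6.8e-06), while EGR1 had 25.3, 29.8 and 36.2 CPM against 19.5, 21.2 and 18.2 CPM (slope 0.26 ± 0.04, 0.0011). The EGR1 slope did not pass without Poria at 20 µg/mL (0.065) or 500 µg/mL (0.4), and its comparison with vehicle (0.64 ± 0.15, 0.035) ended without any 1 vehicle library (0.11, 0.055 and 0.11) or Poria at 100 µg/mL (0.084).

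HMOX1 and GREM1 were below vehicle at the lowest dose and above it at the highest. HMOX1, which breaks down heme and is a target of NRF2, had 86.2, 85.3 and 87.2 CPM in vehicle and 68.3, 73.1 and 105 CPM at the 3 doses. It was lower at 20 and 100 µg/mL (-0.34 and -0.24, adjusted p = 4.2e-06 and 0.00014) and higher at 500 µg/mL (0.28 ± 0.04, 5.2e-06). GREM1, an antagonist of bone morphogenetic proteins, had 18.0, 19.7 and 19.9 CPM in vehicle and 16.1, 18.6 and 26.2 CPM (slope 0.36 ± 0.04, 0.00016). Its change at 20 µg/mL was -0.26 (adjusted p = 0.011), which DESeq2 did not call (0.23). NEAT1, the scaffold RNA of paraspeckles, was highest at the lowest dose, with 286, 297 and 299 CPM in vehicle and 551, 514.5 and 393 CPM at the 3 doses. All Poria libraries were above vehicle, the lowest dose most (0.91, adjusted p = 5e-15, against 0.42 ± 0.04 at 500 µg/mL, 4.5e-09). Its slope was -0.24 ± 0.03 (0.0029). Without Poria at 500 µg/mL the slopes of HMOX1, GREM1 and NEAT1 did not pass (0.10, 0.21 and -0.10, adjusted p = 0.74, 0.58 and 0.66). That of HMOX1 also did not pass without vehicle replicate 2 or 3 (0.074 and 0.061), and with all 9 libraries in the fit neither HMOX1 nor NEAT1 passed for the slope (0.48 and 0.2).

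Few well annotated genes peaked at the middle dose. RN7SL1, the RNA of the signal recognition particle, had 5.55, 6.43 and 6.36 CPM in vehicle and 6.27, 26.7 and 8.19 CPM at the 3 doses. The change at 100 µg/mL was 2.13 ± 0.08 (adjusted p = 1.3e-15). This RNA has many near-identical copies, so its count is uncertain. BLOC1S3, a gene of lysosome-related organelles, had 19.6, 15.0 and 17.6 CPM against 23.2, 21.9 and 21.3 CPM (-0.57 at 100 µg/mL, adjusted p = 1.4e-06). OSBPL7, an oxysterol-binding protein gene, had 9.85, 11.5 and 9.81 CPM against 7.91, 7.01 and 7.87 CPM (0.59, 3.3e-05). MT-CYB, the mitochondrial cytochrome b, was lowest at 100 µg/mL as well, with 3920, 2923 and 3864 CPM against 4312, 3874 and 4479 CPM (-0.53, 0.01), and did not pass with the GC offsets (0.17). The same library had the lowest share of mitochondrial counts, 5.38% against 6.97% at 20 and 5.84% at 500 µg/mL and 6.46%, 5.93% and 6.25% in vehicle. The part of that share in the middle-dose class was not tested.

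**Figure D5:**
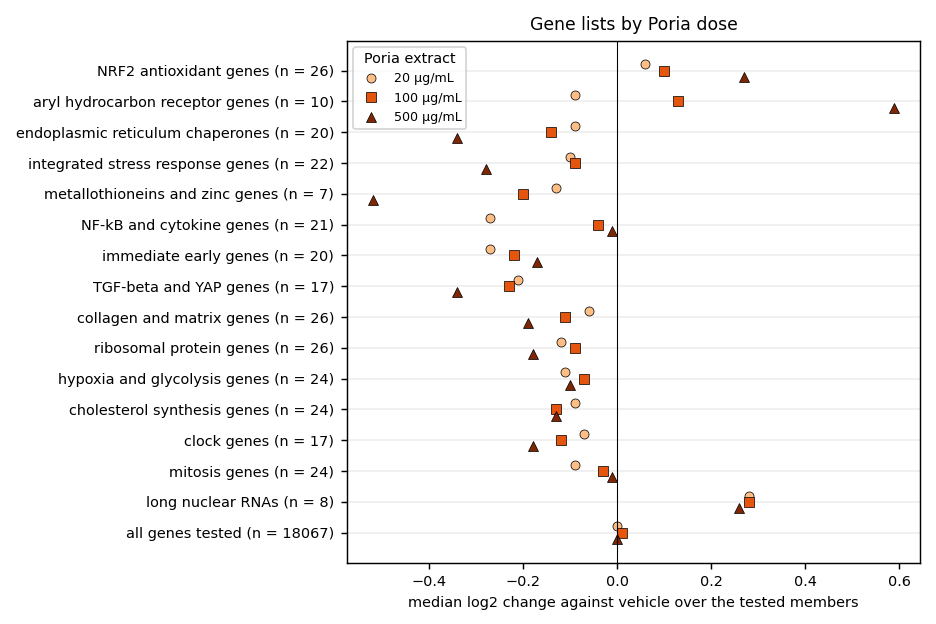
Median log2 change against vehicle (horizontal axis) of the tested members of each gene list at 20, 100 and 500 µg/mL of Poria extract. Aryl hydrocarbon receptor genes move between -0.09 at 20 and 0.59 at 500 µg/mL, endoplasmic reticulum chaperones between -0.09 and -0.34, and TGF-beta and YAP genes keep values of -0.21 to -0.34.

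Of 24 cholesterol synthesis genes 10 fell and 0 rose against vehicle, where 14.9% and 12.4% of all genes did, with medians of -0.09, -0.13 and -0.13. Of 24 mitosis genes 10 fell and 4 rose (9 and 0 with the GC offsets), and of 25 interferon genes 4 fell and 6 rose (1 and 5 with them). Of 26 DNA replication genes 2 fell and 4 rose, and of 20 p53 targets 3 fell and 3 rose. Over the doses 1.99% of all genes fell and 1.76% rose. Of 16 MAPK feedback genes, DUSP6, PHLDA1 and SPRY2 rose (0.19, 0.29 and 0.13 per step) and DUSP10 fell by 0.22. Of 17 genes of the metalloproteinase list, ADAMTS1, MMP14 and PLAU rose (0.17, 0.11 and 0.13) and PLAT fell by 0.15. Of 19 FOXO and PI3K feedback genes, SGK1, CDKN1B and KLF6 rose (0.17, 0.15 and 0.09) and CITED2 and IRS1 fell (-0.09 and -0.11). With DESeq2 2 MAPK feedback genes rose and 0 fell, for the metalloproteinase list 3 and 2, and for the FOXO and PI3K list 1 and 0. None of the genes of these 3 lists passed for the slope without Poria at 500 µg/mL. Of the cholesterol synthesis genes 2 fell over the doses, and of the mitosis genes 1 rose. Of 14 heat shock genes 3 fell and 4 rose with the Poria libraries as 1 group. HSPA8, a constitutive chaperone of the cytosol, rose by 0.11 ± 0.02 per step (adjusted p = 0.011), but not without Poria at 20 or 500 µg/mL (0.26 and 0.66). HSPB1, a small heat shock protein, had 302, 288 and 282 CPM against 388, 387 and 393 CPM (-0.42 ± 0.03, 2.4e-06). The summed level of the mesenchymal cell markers was 9370 to 9600 CPM in the Poria libraries and 10200 to 10600 CPM in vehicle. That of the astrocyte and glial markers was 323 to 358 CPM and 384 to 391 CPM, with SOX9 lower at every dose (69.5, 69.7 and 58.2 CPM against 82.6, 84.3 and 82.9 CPM). The median change of the 8 tested glial markers was -0.03, 0.03 and 0.12 at the 3 doses. As 1 group against vehicle 1 of them was higher and 2 were lower, so the lower sum is not shared by most members. The summed myeloid markers, mostly CD68, were at 133 to 164 CPM and 175 to 183 CPM, the epithelial ones at 195 to 219 CPM and 241 to 248 CPM, and the endothelial ones at 33.9 to 40.9 CPM and 29.9 to 32.5 CPM. Over the doses CD68 and PTPRC fell (-0.14 and -0.23 per step), 2 of 6 tested myeloid markers, whose median change was 0.07, -0.28 and -0.39. NEFL, MAP2 and SNAP25 fell (-0.40, -0.24 and -0.17), 3 of 8 neuronal markers, of which DESeq2 called 0. The epithelial keratin gene KRT18 fell by 0.09, and the endothelial receptor gene KDR rose by 0.14. Without Poria at 500 µg/mL the slope passed for 1 myeloid and 0 neuronal, epithelial or endothelial markers. All libraries are of an established cell line, so these levels are not read as shares of cell types. The part of these shifts in the other results was not tested.

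Few genes passed between Poria and the extract run beside it. Between the 3 Poria and the 3 Atractylodis libraries 4 of 18356 genes passed (0.0218%), all higher with Poria, while 1914 had an unadjusted p under 0.05 and DESeq2 called 76. Leaving out Poria at 20, 100 or 500 µg/mL gave 67, 1 and 2 genes, and leaving out vehicle replicate 2 gave 2. Leaving out Atractylodis at 20, 100 or 500 µg/mL, an alternative chosen after seeing the data, gave 13, 0 and 0, so all 4 calls ended without Atractylodis at 100 or at 500 µg/mL. The spread between doses counts as error here too, so a difference that misses the threshold does not show that the extracts act alike. TXNIP had 10.0, 10.6 and 6.35 CPM at 20, 100 and 500 µg/mL of Atractylodis against the 215 CPM of the top Poria dose, yet the mean difference over doses did not pass (3.18 ± 1.28, adjusted p = 0.47). HSPA5 had 3572, 3782 and 3872 CPM with Atractylodis (difference -0.28 ± 0.12, 0.48) and CXCL8 had 8.51, 8.32 and 9.48 CPM (0.74 ± 0.30, 0.48). NQO1 had 165, 173 and 237 CPM (0.03 ± 0.21, 0.97) and CCN2 had 105, 109 and 100.3 CPM (0.20 ± 0.04, 0.087).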

How the data were processed

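RNA was sequenced as 100-base paired reads from directional libraries, per the labels' protocols. Expected counts per gene, as RSEM estimates them, were deposited by the authors in 1 table. FastQC 0.11.9, Trim Galore 0.6.5, STAR 2.7.3a, RSEM 1.3.3 and the builds hg38 and GRCh38 are named in the submitters' processing notes, and the annotation release is not given in the sources used here. Of its columns of per-sample values 9 were used and 270 were not. Of all values 10.2% were not whole, and the counts were rounded. Symbols and positions came from GENCODE 29 for 57055 of 60675 genes, and the other 3620 held 0.031 to 0.033% of counts. Promoter sequences are RefSeq's (GRCh38.p14).

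Groups came from the labelled treatment and dose. Genes were filtered with edgeR's filterByExpr (minimum count 10, total 15), scaled by TMM and tested with edgeR 4.0.16 quasi-likelihood F-tests in R 4.3.3, with Benjamini-Hochberg adjustment over all genes tested. Standard errors were derived from each log2 change and its F statistic. Fits compared Poria with vehicle, each dose with vehicle, a trend over dose steps, the slope among Poria doses beside a shift from vehicle, and Poria with Atractylodis (9 libraries). Alternatives were DESeq2 1.42.0, RLE scaling, no filter, offsets for GC content and length (splines of 5 degrees of freedom), all 9 libraries, dose in µg/mL, a dose block, another shape threshold and leaving out each library (those of Atractylodis chosen for this after seeing the data). The fits were tested on simulated data.

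The members and lists were chosen with earlier results of these data known. Named genes are the 10 largest changes each way between Poria and vehicle, among called genes whose groups did not overlap. Also named are the 8 largest called slopes each way, the 4 largest of each shape each way, up to 4 per list with the smallest p, and a fixed set. Genes named beside these, mainly list members given as examples and cell type markers, were chosen after their values were seen.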

Additional observations from a re-analysis of the deposited data

Results flagged for a closer look

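The 4 genes that passed between the 3 Poria and the 3 Atractylodis libraries are given with their values, from edgeR's quasi-likelihood test with Benjamini-Hochberg adjustment over 18356 genes. SMIM11 had 15.5, 11.6 and 12.3 CPM with Poria and 8.10, 6.87 and 7.23 CPM with Atractylodis at 20, 100 and 500 µg/mL, a difference of 0.84 ± 0.10 on the log2 scale (adjusted p = 0.0083, higher with Poria at 3 of 3 doses). The other 3 genes fall outside the rule for named genes and were chosen after their values were seen. RAB3B, a vesicle GTPase gene, had 59.7, 61.5 and 68.5 CPM with Poria and 51.3, 52.4 and 46.3 CPM with Atractylodis (0.35 ± 0.05, adjusted p = 0.023), beside 67.5, 67.4 and 65.9 CPM in vehicle. RPL21P75, a pseudogene whose reads may belong to its parent gene, had 2.84, 2.16 and 1.98 CPM with Poria and 0.449, 0.281 and 0.230 CPM with Atractylodis (2.85 ± 0.35, adjusted p = 0.023). ENSG00000249319 had 1.20, 1.46 and 1.54 CPM with Poria and 0.718, 0.374 and 0.368 CPM with Atractylodis (1.53 ± 0.24, adjusted p = 0.023). All 4 calls ended without Atractylodis at 100 µg/mL (adjusted p = 0.071 to 0.13) or at 500 µg/mL (0.17 to 0.2). Without Poria at 100 or 500 µg/mL those of RAB3B (0.093 and 0.12), RPL21P75 (0.096 and 0.11) and ENSG00000249319 (0.14 and 0.15) ended too. RAB3B and ENSG00000249319 also did not pass without vehicle replicate 2 (0.06 for both), nor RAB3B with a dose block (0.098). No group held 4 or more libraries, so no library was examined for standing apart within its group.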

How the results depend on the processing

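The count of genes passing between Poria and vehicle (4931) stayed within 1.5 times under every alternative run. The dose trend (4159) went to 37 with dose in µg/mL and to 2435 to 5157 when each library was left out. The slope among Poria doses (677) went to 310 with DESeq2, 449 with all 9 libraries and 57 to 1043 when each library was left out. DESeq2 called 1147, 1713 and 2314 genes at 20, 100 and 500 µg/mL and 190 between 500 and 20 µg/mL, where leaving out a library gave 1006 to 1843. Poria against Atractylodis (4) went to 307 with no filter, 76 with DESeq2, 10 with GC offsets, 13 with a dose block and 0 to 67 when each library was left out (those of Atractylodis chosen for this after seeing the data). A minimum change of 0.58 left 233 genes with a dose shape. Among single genes 1 value reversed, the SOX9 slope without Poria at 500 µg/mL (0.00, adjusted p = 1, and -0.26 to 0.00 over the libraries left out; the cause was not tested). RLE scaling changed none of 165 gene calls. Without Poria at 500 µg/mL 59 of 124 kept direction and side of the threshold, 64 kept direction only and 1, the SOX9 slope, did neither. RLE and GC offsets moved the median of all genes by -0.001 and -0.004. No paired analysis was possible because each Poria dose has 1 library, all labelled replicate 2, so the groups share only that number. Each dose rests on 1 library, and depth limits genes near 1 CPM such as CYP1A1.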
